A study of Mus musculus with 7 samples.

Results

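Chromatin accessibility around 9 genes of cell survival and apoptosis was compared between Dll1+ and Dll1− mammary tumor cells. The genes were the pro-survival BCL-2 family members Bcl2, Bcl2l1 and Mcl1, the BH3-only genes Bcl2l11, Bbc3 and Pmaip1, and the inhibitor of apoptosis protein (IAP) genes Birc2, Birc3 and Xiap. Their regions were chosen by position alone. Peaks of the Dll1+ list and of the Dll1− list were merged into union regions where they overlapped or touched, and a union region was given to the protein-coding gene with the transcription start site (TSS) nearest to its midpoint. This gave 145 of 119215 union regions to the 9 genes.

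ATAC-seq, in which a transposase inserts sequencing adapters into open DNA, was performed on cells of spontaneous mammary tumors from mice that carried the MMTV-PyMT transgene and a Dll1-mCherry reporter. MMTV-PyMT expresses the polyoma middle T oncoprotein from a viral promoter active in mammary epithelium and is a model of luminal breast cancer. Cells with the surface proteins CD45, CD31 or Ter119 were sorted out, and the rest were divided into mCherry+ (Dll1+, 3 samples) and mCherry− (Dll1−, 4 samples) cells, so both groups carried the same transgenes and no group was treated. The 7 samples came from 4 tumors, of which 3 gave both populations. Ages are not given in the sources used here. Each deposited list pools the samples of its group, so no difference below could be set against the spread between samples and no test was made.

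The BCL-2 family decides whether the outer mitochondrial membrane is opened and the caspases are set off. Bcl2, Bcl2l1 (which encodes BCL-XL) and Mcl1 hold the membrane closed, and the BH3-only proteins BIM (Bcl2l11), PUMA (Bbc3) and NOXA (Pmaip1) bind and neutralise them. The IAP proteins act further down: XIAP inhibits caspases directly, and cIAP1 (Birc2) and cIAP2 (Birc3) are ubiquitin ligases of the TNF receptor complex that govern NF-kB signaling.

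Most regions of the 9 genes were open in both populations. Of the 145 regions, 102 were in both lists (70.3%, against 66.4% of all union regions), 10 were in the Dll1+ list only (6.90%, against 9.01%) and 33 were in the Dll1− list only (22.8%, against 24.6%). These shares lay near those of the genome as a whole, and each lay on the other side of the genome share when only rows at or above the median fold of their list were taken. Over the 3 pro-survival BCL-2 genes the counts were 44 shared, 6 Dll1+ only and 9 Dll1− only (74.6%, 10.2% and 15.3%). Over the 3 BH3-only genes they were 40, 4 and 21 (61.5%, 6.15% and 32.3%). Over the 3 IAP genes they were 18, 0 and 3 (85.7%, 0% and 14.3%). Of the 21 Dll1− only regions of the BH3-only genes, 12 belonged to Bcl2l11 (27.3% of its regions) and 8 to Pmaip1 (61.5%). The Bcl2l11 share lay near the 24.6% of all union regions.

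**Figure D1:**
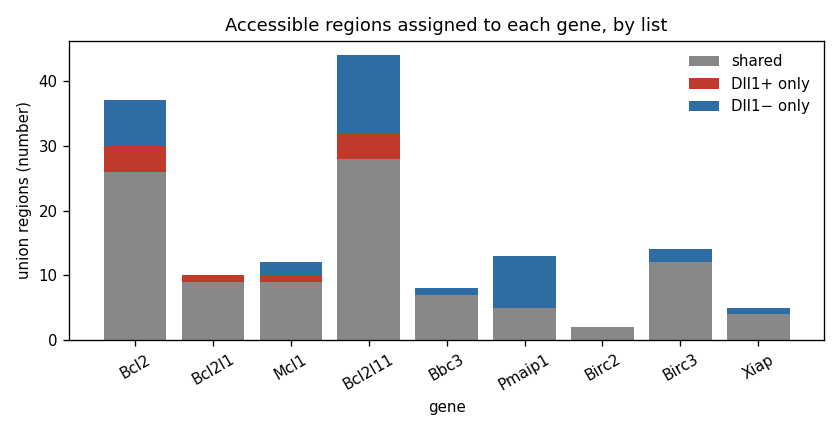
Number of union regions assigned to each of the 9 genes (stacked bars), split into regions in both lists, in the Dll1+ list only and in the Dll1− list only. Bcl2 (37 regions) and Bcl2l11 (44) hold most regions, and Pmaip1 has more Dll1− only (8) than shared (5) regions, which turns round (3 and 4) among rows at or above the median fold.

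The lists differed in depth, and absence from a list does not mean closed chromatin. The genome-wide background recovered from the deposited values was 3.74 tags for Dll1+ cells and 7.20 tags for Dll1− cells, and the lowest tag count of a listed summit was 9 and 14. When the Dll1− list was scaled down to the Dll1+ background, 98.4% of its rows still passed and the 9 genes again had 33 Dll1− only regions, so this setting removed too little to show what depth does to the count. The marker genes of the sorted cells were open: all 12 luminal epithelial markers had a promoter region in both lists. The promoters of 10 of 12 immune and 8 of 10 endothelial markers were in neither list, while 1 immune promoter, that of Csf1r, was Dll1− only. Of 15 fibroblast markers, 5 promoters were shared, 6 were Dll1− only and 4 were in neither list, and 46.2% of their regions were Dll1− only. That share was 35.3% for the immune, 33.7% for the endothelial and 10.6% for the luminal markers, against 24.6% of all union regions. The part of this in the Dll1− only regions below was not tested, and a region open in few cells cannot be told apart from one weakly open in many.

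Strength was compared as a rank. The fold enrichment of a region's strongest summit was given as a percentile among all summits of its own list. Of the 102 shared regions, 3 ranked at least 20 percentile points higher in the Dll1+ list (2.94%, against 6.39% of all shared regions), while 7 ranked at least 20 points higher in the Dll1− list (6.86%, against 11.1%). For 4 of these 10 regions the range of the difference given by the 95% Poisson bounds of both tag counts lay on one side of 0. The median difference, Dll1+ minus Dll1−, was −4.21 points over the 102 regions and −1.67 points over all shared regions. Both shares were below those of the genome at large. With percentiles taken among regions instead of summits, the counts were 1 and 10 (0.980% and 9.80%, against 5.61% and 15.5%).

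**Figure D2:**
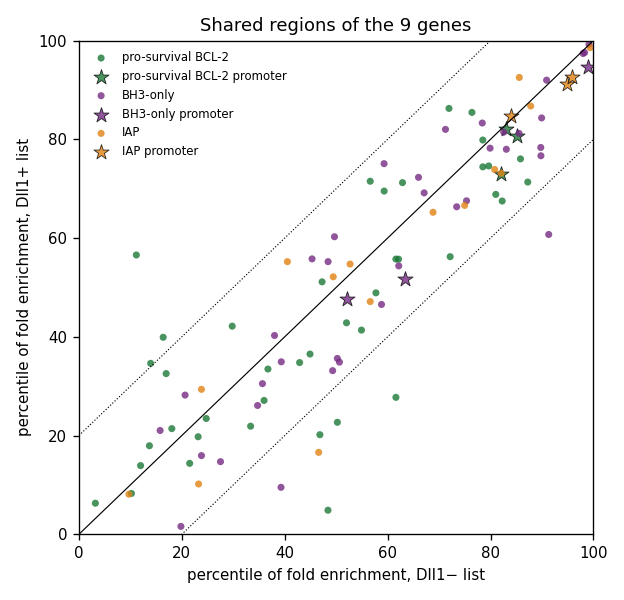
Percentile of fold enrichment in the Dll1+ list against that in the Dll1− list for the 102 shared regions, colored by gene group, with stars for promoters. The dotted lines mark differences of 20 points: 3 points lie above the upper line, 7 below the lower line, and all 9 promoters lie between them.

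The promoter was open in both populations for 9 of 9 genes, against 60.7% of 21924 protein-coding genes. The tags at the strongest promoter summit, Dll1+ list first, were 169 and 258 for Bcl2, 274 and 436 for Bcl2l1, and 258 and 450 for Mcl1. They were 206 and 388 for Bcl2l11, 186 and 308 for Bbc3, and 111 and 265 for Pmaip1. They were 422 and 697 for Birc2, 246 and 409 for Birc3, and 133 and 192 for Xiap. All 9 promoters held fewer tags in the Dll1+ list, which was the shallower list: over all shared regions the median ratio of Dll1+ to Dll1− tags was 0.614.

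Relative to that median ratio, the promoters differed little. The log2 tag ratio less the median was 0.09 for Bcl2, 0.03 for Bcl2l1 and −0.10 for Mcl1. It was −0.21 for Bcl2l11, −0.02 for Bbc3, −0.02 for Birc2, −0.03 for Birc3 and 0.17 for Xiap. Each of these 8 values had a 95% counting interval that included 0. Pmaip1 was the exception, at −0.55 (95% counting interval −0.88 to −0.23). These intervals are exact binomial intervals, cover counting error only and say nothing of the spread between tumors.

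By rank, the Pmaip1, Birc3 and Birc2 promoters were the strongest in both lists. The percentiles in the Dll1+ and Dll1− lists were 91.3 and 94.9 for Birc2, 92.7 and 95.8 for Birc3, 84.8 and 84.0 for Xiap, and 94.6 and 99.0 for Pmaip1. The pro-survival genes had 82.0 and 82.9 for Bcl2, 80.7 and 85.2 for Bcl2l1, and 72.9 and 82.1 for Mcl1. Bcl2l11 (51.6 and 63.5) and Bbc3 (47.6 and 52.2) had the lowest ranks. The rank is relative to the local background, which was 35.2 tags at the Bcl2l11 promoter and 33.9 at the Bbc3 promoter in the Dll1+ list, against 5.84 at the Pmaip1 promoter, so a low rank there did not mean few tags. The difference between the lists was largest for Bcl2l11 (−11.8 points) and was above 0 for 1 of the 9 genes, Xiap (0.789 points), against 29.6% of 13318 genes. With ranks by −log10 p instead of fold, the difference was largest for Pmaip1 (−6.48 points, and −5.00 for Bcl2l11). The median over the 9 promoters was −4.39 points, and that over all these genes was −1.67 points. By tags the order was the reverse, with a median log2 ratio of −0.02 over the 9 promoters and −0.06 over all these genes.

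**Figure D3:**
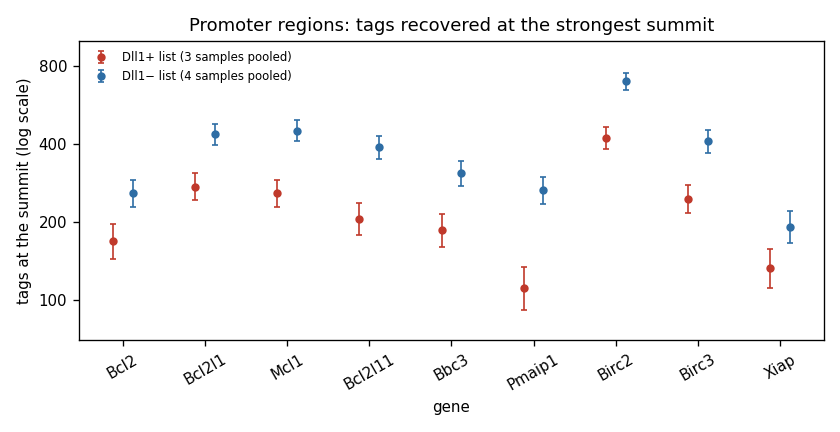
Tags at the strongest promoter summit of each gene in the Dll1+ and Dll1− lists, on a log scale, with 95% Poisson intervals (counting error only). The tags run from 111 (Pmaip1) to 422 (Birc2) in the Dll1+ list, and for Dll1− from 192 (Xiap) to 697 (Birc2), and the gap between the lists is widest for Pmaip1.

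Motifs were searched on both strands in the DNA up to 100 bp to each side of a region's strongest summit. The AP-1 motif (TGACTCA), bound by JUN and FOS dimers, was present in 31 of the 145 regions (21.4%, against 18.1% of all union regions). It was present in 13 of the 33 Dll1− only regions (39.4%, against 30.4% of all Dll1− only regions), in 18 of the 102 shared regions (17.6%, against 15.4%) and in 0 of the 10 Dll1+ only regions (against 4.40%). Bcl2 held 5 of the 13 Dll1− only regions with the motif and only 7 Dll1− only regions in all. The shared regions with the motif included the strongest regions of Bcl2l11 and Bbc3. Sites are printed because they are the sequence feature most often found in the Dll1− only regions. The first 6 are from Dll1− only regions and the last is from a shared region for comparison, on the plus strand of GRCm38 with the motif in capitals.
Bcl2, 165.5 kb downstream of the TSS, chr1:106547581-106547627: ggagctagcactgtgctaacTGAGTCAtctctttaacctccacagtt
Bcl2, 168.3 kb downstream, chr1:106544821-106544867: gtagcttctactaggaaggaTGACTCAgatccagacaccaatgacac
Bcl2, 252.0 kb downstream, chr1:106461076-106461122: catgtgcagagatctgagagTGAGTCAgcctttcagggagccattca
Mcl1, 10.6 kb upstream, chr3:95648166-95648212: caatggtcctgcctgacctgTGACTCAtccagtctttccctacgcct
Bcl2l11, 36.7 kb downstream, chr2:128162739-128162785: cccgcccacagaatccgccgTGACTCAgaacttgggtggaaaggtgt
Xiap, 9.79 kb upstream, chrX:42057987-42058033: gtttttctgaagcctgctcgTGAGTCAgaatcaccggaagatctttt
Bcl2l11, 46.4 kb downstream, shared, chr2:128172512-128172558: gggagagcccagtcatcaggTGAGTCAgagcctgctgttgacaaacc

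The other motifs were each present in fewer than 10 of the 145 regions. The NF-kB consensus was present in 6 regions (4.14%, against 3.02%), of Bcl2 (3 regions), Bbc3, Birc2 and Birc3 (1 each), and 5 of the 6 regions were shared. FOXO (GTAAACA) was present in 9 regions (6.21%, against 3.73%), STAT (TTCNNNGAA) in 8 (5.52%, against 6.91%), RBPJ (GTGGGAA), the DNA-binding partner of the Notch receptors, in 4 (2.76%, against 4.30%) and CRE (TGACGTCA) in 2 (1.38%, against 0.875%). RBPJ matches lay in 2 regions of Bcl2, 1 of Bcl2l11 and the promoter region of Xiap. The p53 consensus was present in 1 region, 49.6 kb upstream of Xiap (0.690%, against 0.0705% of all union regions). The AP-1 and CRE letters differ in their central bases, so no match counted for both. The sites below are printed because they lie at the promoter with most tags (Birc2), in the NF-kB-bearing regions of Birc2 and Bcl2, or are the single p53 match. The capitals mark the match, on the plus strand of GRCm38.
Birc2 promoter, CRE, chr9:7837065-7837112: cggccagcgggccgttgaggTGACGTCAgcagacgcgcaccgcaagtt
Birc2 intron, NF-kB, chr9:7823729-7823778: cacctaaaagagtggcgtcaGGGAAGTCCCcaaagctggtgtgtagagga
Bcl2 intron, NF-kB, Dll1− only, chr1:106628951-106629000: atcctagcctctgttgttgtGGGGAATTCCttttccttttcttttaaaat
Xiap upstream region, p53, chrX:42018153-42018204: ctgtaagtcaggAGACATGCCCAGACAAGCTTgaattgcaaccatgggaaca

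Bcl2 (ENSMUSG00000057329.7, chr1:106538178-106714274, minus strand), the founding anti-apoptotic gene of the family, had 37 regions: 26 shared, 4 Dll1+ only and 7 Dll1− only. Of these, 28 lay in the Bcl2 gene body. In all, 26 were intronic, of which 1, 21.5 kb upstream of the TSS, lay in the gene Kdsr. The overlapping gene D630008O14Rik held 10 of the regions (7 shared, 3 Dll1− only), among them the 6 between 141.7 and 150.2 kb described below. The farthest shared region lay 263.3 kb downstream of the TSS. The strongest region of the Dll1+ list lay 34.8 kb downstream (86.3 and 71.9 percentile in Dll1+ and Dll1−, with 72 and 69 tags). The strongest of the Dll1− list lay 12.3 kb downstream, held an AP-1 motif, and had 61 and 111 tags (76.0 and 85.8 percentile).

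Bcl2 held the largest rank difference in favor of Dll1+ cells among the 9 genes. An intronic region 59.7 kb downstream of the TSS had 52 tags in the Dll1+ list and 23 in the deeper Dll1− list, at percentiles 56.6 and 11.2, a difference of 45.4 points (6.21 to 69.4 from the 95% Poisson bounds of both tag counts). Its log2 tag ratio less the median was 1.88 (1.15 to 2.66). The strongest Dll1+ only region of all 9 genes also lay in Bcl2, 95.5 kb downstream, with 41 tags and a fold enrichment of 8.57 (72.1 percentile). The strongest Dll1− only region of Bcl2, printed above at 168.3 kb, had 41 tags (51.3 percentile). In the opposite direction, a shared region 142.6 kb downstream with AP-1, NF-kB, RBPJ and STAT matches had 43 and 74 tags and differed by −33.9 points in rank (27.7 and 61.6 percentile), with a log2 tag ratio less the median of −0.08 (−0.66 to 0.48).

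Ranks and tags gave different pictures of Bcl2. By rank, 11 of the 26 shared regions were higher in Dll1+ and 15 in Dll1−, near the genome, where 41.0% of all shared regions were higher in Dll1+. The median difference was −3.34 points, against −1.67 over all shared regions. By tags, 19 of 26 exceeded the genome-wide median ratio, 7 had a counting interval above 0 and 0 had one below, and the median log2 tag ratio less the median was 0.34. Over all shared regions, 16.4% had an interval above 0 and 15.8% one below. Among 5500 genes with at least 5 shared regions, 90.1% had a lower median ratio than Bcl2, whose value lay within their 5th to 95th percentile range (−0.43 to 0.45). The local background around the Bcl2 regions was also higher in the Dll1+ list, by a median of 0.24 on the log2 scale relative to all shared regions, and in 21 of 26 regions. In the rest, both lists were at their genome-wide background (3.74 and 7.20 tags). Some neighboring regions had similar backgrounds, so the 26 are not separate observations. In 6 neighboring shared regions between 141.7 and 150.2 kb downstream, picked out after their values were seen, the excess of background was 0.57 to 0.83 and the Dll1+ background was 6.15 to 10.6 tags against 7.81 to 12.02 in the Dll1− list. In these 6 regions the median log2 tag ratio less the median was 0.68, and it was 0.13 in the other 20 shared regions of Bcl2. A like excess of background was present outside the cluster, up to 0.77 at 61.2 kb, and was 0.76 at the region 59.7 kb downstream described above.

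**Figure D4:**
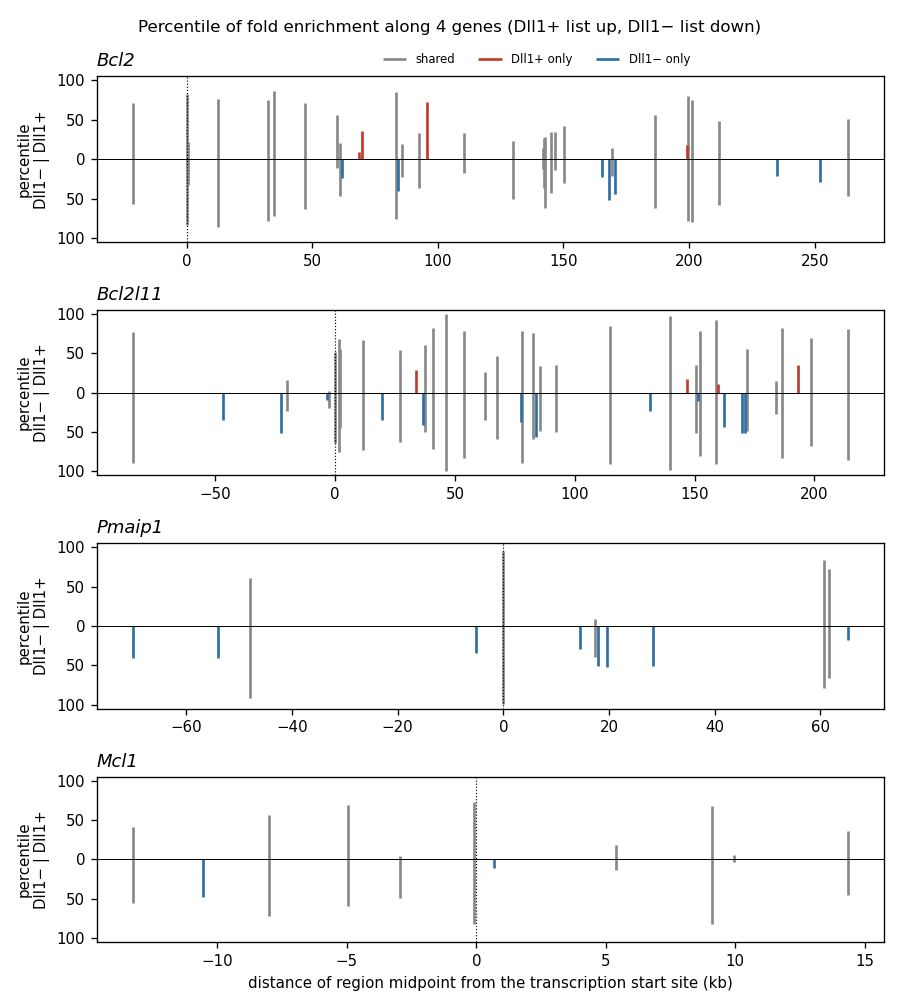
Regions of Bcl2, Bcl2l11, Pmaip1 and Mcl1 by the distance of their midpoint from the TSS in kb (positive is downstream), with the percentile of fold enrichment in the Dll1+ list drawn upward and in the Dll1− list downward. Lines on one side alone are regions in one list only, such as the Dll1+ only region 95.5 kb downstream of the Bcl2 TSS and the 8 Dll1− only regions of Pmaip1. The Dll1+ only region of Mcl1, at percentile 0.284, is too short to see.

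Bcl2l1 (ENSMUSG00000007659.18, chr2:152780668-152831728, minus strand) had 10 regions, of which 9 were shared, 1 was Dll1+ only and 0 were Dll1− only. All 10 lay in its gene body or at its promoter, and none was intergenic. A region 13.8 kb downstream of the TSS, in an intron, had more tags in the Dll1+ list (120) than in the Dll1− list (94) and ranked 23.5 points higher there (39.9 and 16.4 percentile). Its log2 tag ratio less the median was 1.06 (0.66 to 1.46). The strongest Dll1− region lay 24.3 kb downstream, held an AP-1 motif, and had 129 and 311 tags (71.3 and 87.2 percentile), with a ratio of −0.56 (−0.87 to −0.26). Both regions lay in introns of the same gene and differed between the lists in opposite directions. The Dll1+ only region, 1.71 kb downstream, had 64 tags on a local background of 25.3 and ranked low (5.89 percentile).

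Mcl1 (ENSMUSG00000038612.16, chr3:95658788-95663176, plus strand), a short-lived protein on which many mammary tumor cells depend, had 12 regions within 14.4 kb of its TSS, the densest of the 9 genes at 38.2 regions per 100 kb, against 4.37 in the whole genome. Of these, 9 were shared, 1 was Dll1+ only and 2 were Dll1− only. The region 2.94 kb upstream had 64 tags in the Dll1+ list against 221 in the Dll1− list, at percentiles 4.87 and 48.4, the largest difference in favor of Dll1− cells among the 9 genes (−43.5 points, −55.3 to −26.1 from the Poisson bounds). Its log2 tag ratio less the median was −1.08 (−1.51 to −0.68). The next region upstream, 4.97 kb from the TSS, went the other way, with 205 and 269 tags (69.5 and 59.3 percentile) and a ratio of 0.31 (0.04 to 0.58). The strongest Dll1− region lay 9.09 kb downstream, with 264 and 516 tags (67.5 and 82.3 percentile). Both Dll1− only regions, 10.6 kb upstream (107 tags, 48.1 percentile) and 0.674 kb downstream in an intron (118 tags, 10.9 percentile), held an AP-1 motif. The Dll1+ only region, 4.84 kb downstream, had 63 tags on a background of 37.4 and was among the weakest of its list (0.284 percentile).

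Bcl2l11 (ENSMUSG00000027381.16, chr2:128126038-128162547, plus strand) had the most regions, 44, of which 28 were shared, 4 Dll1+ only and 12 Dll1− only. They reached from 84.5 kb upstream to 214.1 kb downstream of the TSS. Only 6 lay in the Bcl2l11 gene body, while 27 lay in the long non-coding RNA gene Gm14005 downstream (17 shared, 3 Dll1+ only, 7 Dll1− only) and 6 in Acoxl upstream. Nearness to a TSS does not show which gene a region acts on. The strongest region of either list, 46.4 kb downstream, ranked at percentiles 99.2 and 99.1, where ranks have little room to differ, with 272 and 532 tags and a log2 tag ratio less the median of −0.26 (−0.48 to −0.05). A second strong shared region, 139.6 kb downstream in Gm14005, ranked at 97.6 and 98.3, with 273 and 469 tags and an AP-1 motif.

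Of the 28 shared Bcl2l11 regions, 0 differed by 20 points in rank in either direction. Of all shared regions, 6.39% did so toward Dll1+ and 11.1% toward Dll1−. The largest difference toward Dll1− was −18.2 points, 2.50 kb upstream, with 70 and 182 tags (1.59 and 19.8 percentile). A percentile of 1.59 leaves little room for a lower rank, and the log2 tag ratio less the median there was −0.67 (−1.09 to −0.27). The largest toward Dll1+ was 15.8 points, 82.7 kb downstream, with 99 and 100 tags (75.1 and 59.3 percentile) and a ratio of 0.69 (0.27 to 1.11). The median difference was −6.34 points, against −1.67 over all shared regions. Of the 28 regions, 20 were lower in the Dll1+ list and 8 were higher, while 41.0% of all shared regions were higher. The median log2 tag ratio less the median was −0.15. A counting interval above 0 was found for 2 of the 28 regions (16.4% of all shared regions) and one below 0 for 5 (15.8%). The 12 Dll1− only regions had 26 to 126 tags (9.81 to 57.0 percentile), with the strongest 83.9 kb downstream (69 tags). The 4 Dll1+ only regions had 13 to 23 tags, with the highest rank 193.1 kb downstream (20 tags, 35.6 percentile).

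Bbc3 (ENSMUSG00000002083.13, chr7:16308393-16318205, plus strand), a p53 target, had 8 regions, 7 shared and 1 Dll1− only. Its promoter held an NF-kB consensus match, and no p53 match lay within 100 bp of the strongest summit of any of the 8 regions. The strongest region lay 16.6 kb downstream in an intron of the neighboring gene Sae1, at percentiles 97.4 and 98.0, with 107 and 207 tags and an AP-1 motif. Rank differences ran from −5.17 points, 0.616 kb downstream (143 and 239 tags), to 7.56 points, 3.62 kb downstream (142 and 191 tags), the latter in an intron. None of the 7 shared regions had a tag ratio interval that excluded 0. The Dll1− only region, 28.3 kb downstream in Sae1, had 40 tags (50.2 percentile).

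Pmaip1 (ENSMUSG00000024521.8, chr18:66458533-66465565, plus strand), another p53 target, had 13 regions, of which 5 were shared, 0 were Dll1+ only and 8 were Dll1− only (61.5%, against 24.6% of all union regions), the highest Dll1− only share of the 9 genes. Among rows at or above the median fold of their list this order was lost: Pmaip1 then had 4 shared and 3 Dll1− only regions, and Bbc3 had 1 shared and 2 Dll1− only. Of 3715 genes with at least 10 regions, 40, Pmaip1 included, had a share as high or higher (1.08%). The 8 regions had 31 to 49 tags in the Dll1− list (17.9 to 52.0 percentile), so they were of low to middle strength. The strongest lay 19.6 kb downstream (45 tags), and all 8 were intergenic, from 70.1 kb upstream to 65.2 kb downstream. Of the 8, 2 held an AP-1 motif, against the 30.4% of all Dll1− only regions given above.

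The shared regions of Pmaip1 split by position. The promoter had 111 and 265 tags, as given above. The region 48.0 kb upstream had 31 and 111 tags and differed by −30.6 points in rank (60.7 and 91.3 percentile), with a log2 tag ratio less the median of −1.14 (−1.76 to −0.55). The region 17.4 kb downstream had 12 and 41 tags (9.51 and 39.3 percentile), with a ratio of −1.07 (−2.13 to −0.11). The other two, 60.7 and 61.7 kb downstream, had 75 and 96 tags and 58 and 72 tags, with ratios of 0.35 and 0.39 and intervals that included 0. The median ratio of the 5 was −0.55, and 2.40% of the 5500 genes had a lower one. The median ratio of local backgrounds around the 5 regions was −0.03 on the log2 scale relative to all shared regions. That is the value of the region 48.0 kb upstream, where both lists were at their genome-wide background (3.74 and 7.20 tags). It therefore does not measure a local difference. The other values ran from −0.37 (17.4 kb downstream) to 0.17 (61.7 kb downstream). Without Pmaip1, the other 8 genes had 97 shared, 10 Dll1+ only and 25 Dll1− only regions (18.9% Dll1− only).

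**Figure D5:**
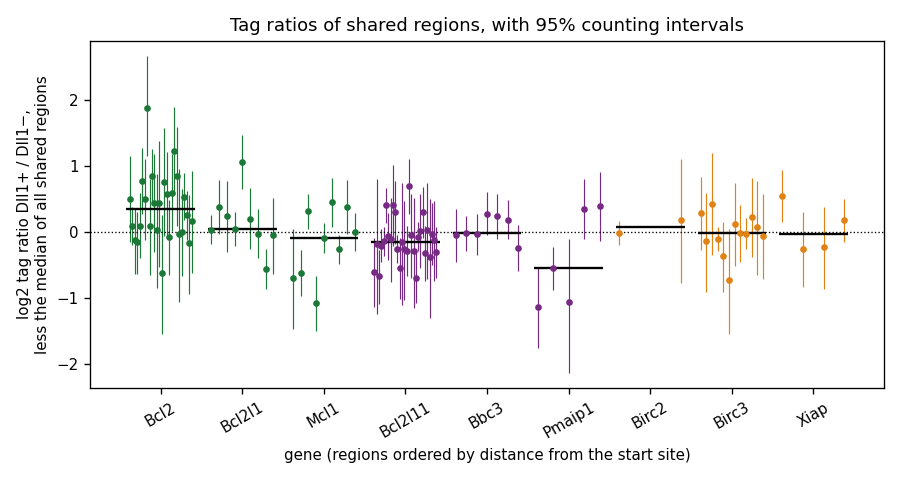
Log2 ratio of Dll1+ to Dll1− tags for each shared region of the 9 genes, less the median of all shared regions (dotted line at 0), with 95% counting intervals and a black line at each gene's median. The median is highest for Bcl2 (0.34) and lowest for Pmaip1 (−0.55), and the other genes have medians from −0.15 to 0.08.

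Birc2 (ENSMUSG00000057367.12, chr9:7818227-7837064, minus strand) had 2 regions, both shared. Its promoter carried the most tags of the 9 promoters, and an intronic region 11.4 kb downstream, with the NF-kB match printed above, had 18 and 26 tags (29.4 and 23.8 percentile). Birc3 (ENSMUSG00000032000.17, chr9:7848699-7873186, minus strand), its neighbor and a known NF-kB target, had 14 regions, of which 12 were shared and 2 were Dll1− only. The strongest lay 41.7 kb upstream, at percentiles 98.6 and 99.4, with 374 and 658 tags, above its own promoter in rank. The Birc3 promoter region held an NF-kB match. The largest differences lay 29.5 kb upstream, with 20 and 54 tags (−30.0 points, 16.6 and 46.6 percentile), and 50.5 kb upstream, with 28 and 34 tags (14.7 points, 55.2 and 40.5 percentile). No Birc2 or Birc3 region had a tag ratio interval that excluded 0. The Dll1− only regions of Birc3 had 39 and 46 tags, the stronger 57.1 kb upstream (26.6 percentile).

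Xiap (ENSMUSG00000025860.15, chrX:42059679-42109656, plus strand) had 5 regions, of which 4 were shared and 1 was Dll1− only. Its strongest region lay 54.8 kb upstream, with 103 and 115 tags (92.5 and 85.6 percentile) and a log2 tag ratio less the median of 0.55 (0.15 to 0.94). The region with the p53 match, 49.6 kb upstream, had 42 and 82 tags (73.1 and 82.1 percentile). The Dll1− only region, 9.79 kb upstream, had 30 tags (32.6 percentile) and the AP-1 site printed above. Over the 3 IAP genes, 1 of 18 shared regions had a tag ratio interval above 0 and 0 had one below.

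Across the 9 genes, 13 of 102 shared regions had a tag ratio interval above 0 (12.7%, against 16.4% of all shared regions) and 12 had one below (11.8%, against 15.8%). Of the 13, 7 belonged to Bcl2 (of its 26 shared regions). Of the 12, 5 belonged to Bcl2l11 (of 28 shared regions), 3 to Pmaip1 (of 5) and 3 to Mcl1 (of 9). A further 45 apoptosis genes had 261 regions, of which 185 were shared (70.9%, against 66.4% of all union regions). Another 23 were Dll1+ only (8.81%, against 9.01%) and 53 were Dll1− only (20.3%, against 24.6%). Promoters were shared for 40 of these 45 genes, against 60.7% of all protein-coding genes. Of the 40, 16 ranked higher in the Dll1+ list, against 29.6% of all genes with a shared promoter. The median rank difference of the shared regions of the 45 genes was −1.57 points, against −1.67 over all shared regions. The genes with most Dll1+ only regions were Fadd, an adaptor of death receptors (3), followed by Bid, Birc6 and Fas (2 each). Among those with most Dll1− only regions were Fasl, the ligand of the death receptor Fas (8), and Hrk and Fadd (4 each). The Hrk promoter, of a further BH3-only gene, was in the Dll1− list only.

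Counting for each gene the DNA nearest to its TSS, the 9 genes together had 11.0 union regions per 100 kb, against 4.37 in the genome. The density ranged from 3.61 (Birc2) and 3.80 (Xiap), below that of the genome, and 4.58 (Pmaip1) to 38.2 (Mcl1). Of the 145 regions, 52.4% lay within 50 kb of the TSS, against 68.4% of all union regions. Introns held 55.9% (against 48.4%), intergenic DNA 33.8% (33.2%) and promoters 6.21% (11.7%). The 9 promoter regions were rich in G and C (60.2% to 71.6% within 100 bp of the summit), and the other 136 regions had a median GC content of 49.3%.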

How the data were processed

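ATAC-seq libraries of 7 samples were processed by the authors with the ENCODE ATAC-seq pipeline, which took the replicates of a group in 1 run, and the optimal peak list per group was deposited. Peaks were therefore called on pooled samples. The genome build is mm10 (GRCm38) per the submitters' processing notes, and 0 rows ran past a chromosome end. The aligner, caller and thresholds are not given in the sources used here. The deposited fold enrichment, computed by the authors, is the ratio of the signal at a summit over its local background. A −log10 p-value per summit was deposited with it by the authors. No read totals were used, and the later per-sample counting by the authors was not analysed here.

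The Dll1+ list held 132872 rows and the Dll1− list 148923. Tags at each summit and the local background were recovered from both values with a Poisson model, taking the fold as (tags + 1) / (background + 1). This solved all but 1 row (tolerance 0.001), and the median tag count was 43 for Dll1+ and 61 for Dll1− rows. The recovered counts are model-based, the pipeline's fragment extension is included in them, and intervals cover counting error only. GENCODE M21 (basic set) supplied the TSS, and GRCm38.p6 the sequence. A promoter region covers a TSS or lies within 1000 bp of it. Of several that cover a TSS the one with the highest percentile was used, and where none covers one, the nearest. The class promoter used for shares of regions reaches from 1000 bp before a TSS to 100 bp after it. Scripts used Python 3.11.15, pandas 2.3.3, scipy 1.17.1 and pysam 0.24.0, and were tested on simulated data.

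The regions named were the promoter region of each gene, its strongest region in each list, its strongest region of each list alone and its largest rank difference in each direction. Other regions were named after their values were seen: the Bcl2 regions with printed AP-1 or NF-kB sites and the neighboring cluster, the 139.6 kb region and the AP-1 site of Bcl2l11, the intronic Dll1− only region of Mcl1, and the remaining Pmaip1 shared regions. The members, gene lists and motifs were chosen with earlier results of these data known. Alternatives were other rules for a shared region, stronger or equal numbers of rows, matched depth, a 50 kb limit, another TSS and other ranks.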

Additional observations from a re-analysis of the deposited data

How the results depend on the processing

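Within 50 kb of the TSS the 9 genes had 59 shared (77.6%, against 68.5% of all), 3 Dll1+ only (3.95%, against 7.87%) and 14 Dll1− only regions (18.4%, against 23.6%), with 1 shared region ranked higher in Dll1+ (1.69%, against 5.17%) and 4 in Dll1− (6.78%, against 10.9%). Among rows at or above the median fold of their list they had 51 shared (65.4%, against 69.5% of all), 8 Dll1+ only (10.3%, against 9.44%) and 19 Dll1− only regions (24.4%, against 21.04%), so each share lay on the other side of that of all union regions. With percentiles among regions 1 region ranked higher in Dll1+ (0.980%, against 5.61%), and with a threshold of 10 points 13 ranked higher in Dll1+ (12.7%, against 15.2% of all) and 23 in Dll1− (22.5%, against 25.1%). Summits within 100 bp, equal numbers of rows, matched depth, another TSS and ranks by −log10 p kept each count over the 9 genes within 1.5 times. Of the counts of single genes under these settings, Bcl2 Dll1+ only went from 4 to 7 regions with equal numbers of rows. The median promoter difference was −6.50 points with percentiles among regions, −0.814 with ranks by −log10 p and −0.02 as a log2 tag ratio. For single genes, the Xiap promoter difference became −0.656 with percentiles among regions, and that of Bcl2 0.00605 with ranks by −log10 p. In all, 28 counts of regions of single genes moved by over 1.5 times. Promoter differences of single genes also changed in size, that of Bcl2l11 from −11.8 to −16.0 points with percentiles among regions and to −5.00 with ranks by −log10 p, and that of Mcl1 from −9.24 to −13.7 and −2.09. Within 50 kb of the TSS, Bcl2 had 0 Dll1+ only and 0 Dll1− only regions, and Bcl2l11 had 5 and Pmaip1 5 Dll1− only regions. Among the stronger rows, Bcl2l1 had 0 and Birc3 2 Dll1+ only regions, and Pmaip1 3 Dll1− only regions. No paired analysis was possible because each deposited list combines its 3 or 4 samples, and for the same reason no sample could be left out. Absence from a list does not mean closed chromatin. The Dll1+ list was the shallower, and the matched depth setting removed too little to show what depth does to absence.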
